A study of Homo sapiens with 12 samples.

Results

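The surface of human pluripotent cells is described here by the RNA of 10 genes: PODXL, B3GALT5, ST3GAL2, ALPL, THY1, CD24, CD9, PROM1, EPCAM and F11R. They were chosen by name, as genes that encode, carry or build antigens used to recognise these cells. Earlier results of these data were known at that choice. All 10 were found among the 60617 genes of the deposited TPM table (TPM: reads per unit of gene length, as a share of that library's sum). For 9 of them the read counts were also used, from a table of 58575 genes, and B3GALT5 had no usable row there.

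RNA-Seq had been run on 12 libraries of 201B7, an established human iPSC line and therefore 1 clone, harvested on Day 5. In Cond 1 (Control) the cells were kept as usual. In Cond 2 ("Low nutrient") they received StemFit medium that had been held at 56 °C for 30 min, in Cond 3 ("Differentiation") DMEM with 10% FBS, MEM NEAA and GlutaMax, and in Cond 4 ("Physical stimulas") standard medium after pipetting 20 times at passaging. Each condition had 3 libraries, which the labels do not tie to separate cultures, so p-values measure only the spread between these samples, which may be technical. The total count per library lay between 16441148 and 21871503.

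The antigens that name pluripotent cells in flow cytometry (FCM) are largely sugars. TRA-1-60 is an epitope on sugar chains carried by podocalyxin, the product of PODXL. SSEA-3 and SSEA-4 are globo-series glycolipids: lactosylceramide is extended to globoside, B3GALT5 adds a galactose that gives SSEA-3, and ST3GAL2 caps it with a sialic acid that gives SSEA-4. Other markers of the group are proteins held by a glycosylphosphatidylinositol (GPI) lipid anchor, a tetraspanin, a pentaspan protein of membrane protrusions, and adhesion molecules of epithelial junctions. The study read SSEA-4 and TRA-1-60 by FCM in such cultures, and the comparisons below ask how the transcripts behind these and related antigens stood there. RNA levels are not measures of the antigens. In RNA from a whole well, fewer cells with a transcript and less transcript per cell cannot be told apart.

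Promoter sequence from RefSeq (GRCh38.p14) was at hand for 5 of the 10 genes, with 16 start sites in all. The windows hold 250 bases before and 50 after a start. They are shown for B3GALT5 and CD9, which fell by more than 2-fold in a changed medium, and for ALPL, the gene that rose in Cond 2. Both B3GALT5 starts at hand are given, and both lie downstream of the annotated beginning of the gene at 39556442. Capitals mark matches on either strand to the TATA box (TATAAA), the CCAAT box (searched as CCAAT), the GC box (GGGCGG) and the E box (CACGTG). Of 35116 promoter windows 11.53% hold the TATA box, 34.61% the CCAAT box, 44.95% the GC box and 7.26% the E box, and overlapping or adjoining matches run together.
B3GALT5, chr21:39612690-39612989, forward strand: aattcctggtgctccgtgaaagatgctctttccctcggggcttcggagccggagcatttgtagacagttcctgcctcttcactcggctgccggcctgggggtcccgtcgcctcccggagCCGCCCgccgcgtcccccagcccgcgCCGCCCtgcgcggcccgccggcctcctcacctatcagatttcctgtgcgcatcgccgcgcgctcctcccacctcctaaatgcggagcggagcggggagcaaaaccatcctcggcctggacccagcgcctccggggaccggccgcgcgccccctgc
B3GALT5, chr21:39642146-39642445, forward strand: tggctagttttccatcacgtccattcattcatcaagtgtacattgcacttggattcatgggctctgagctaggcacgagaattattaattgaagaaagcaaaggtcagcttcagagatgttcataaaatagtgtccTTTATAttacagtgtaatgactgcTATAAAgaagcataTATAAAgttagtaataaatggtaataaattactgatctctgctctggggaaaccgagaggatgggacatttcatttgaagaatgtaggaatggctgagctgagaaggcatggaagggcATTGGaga
CD9, chr12:6200150-6200449, forward strand: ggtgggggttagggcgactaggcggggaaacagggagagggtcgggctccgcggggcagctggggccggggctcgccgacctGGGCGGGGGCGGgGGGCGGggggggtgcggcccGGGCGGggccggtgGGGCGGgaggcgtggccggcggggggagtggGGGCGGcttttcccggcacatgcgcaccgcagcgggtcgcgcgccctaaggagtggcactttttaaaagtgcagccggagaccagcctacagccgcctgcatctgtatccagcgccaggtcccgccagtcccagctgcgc
ALPL, chr1:21509173-21509472, forward strand: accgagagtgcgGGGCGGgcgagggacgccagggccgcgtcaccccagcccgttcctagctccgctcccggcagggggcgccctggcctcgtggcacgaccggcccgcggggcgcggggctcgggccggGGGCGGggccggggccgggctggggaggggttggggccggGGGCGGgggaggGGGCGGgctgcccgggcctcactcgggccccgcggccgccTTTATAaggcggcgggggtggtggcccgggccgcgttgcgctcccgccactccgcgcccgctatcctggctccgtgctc
The upstream of the B3GALT5 starts shown had a GC content of 71.0% and an observed to expected CpG ratio of 0.96, with the GC box on the reverse strand. The downstream start had a GC content of 38.7% and a CpG ratio of 0.29, and it held the TATA box on both strands and the CCAAT box on the reverse strand. A GC content below that of the downstream start was found in 9.6% of all windows. The CD9 window shown, 1 of 4 for this gene, was at 75.7% GC and carried the GC box several times. The ALPL window, 1 of 3, was at 82.3% GC, and its TATA box on the reverse strand began 29 bases before the start. Gene-level counts do not tell which start was used, and a match is a description of the letters only.

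At the RNA level the 10 genes covered a wide range. CD24 and PODXL ranked 37 and 40 among 17549 genes with a mean of at least 1 TPM in Cond 1, and ST3GAL2 and B3GALT5 ranked 6791 and 7166. Together PODXL and CD24 made up 73.1% to 74.4% of the summed TPM of the 10 genes in the control libraries. Their share was 68.0% to 71.0% in Cond 2, 79.0% to 80.5% in Cond 3 and 73.0% to 75.0% in Cond 4. The carrier of TRA-1-60 was thus a transcript near the top of the transcriptome, and the enzymes of SSEA-4 were transcripts of moderate level.

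**Figure D1:**
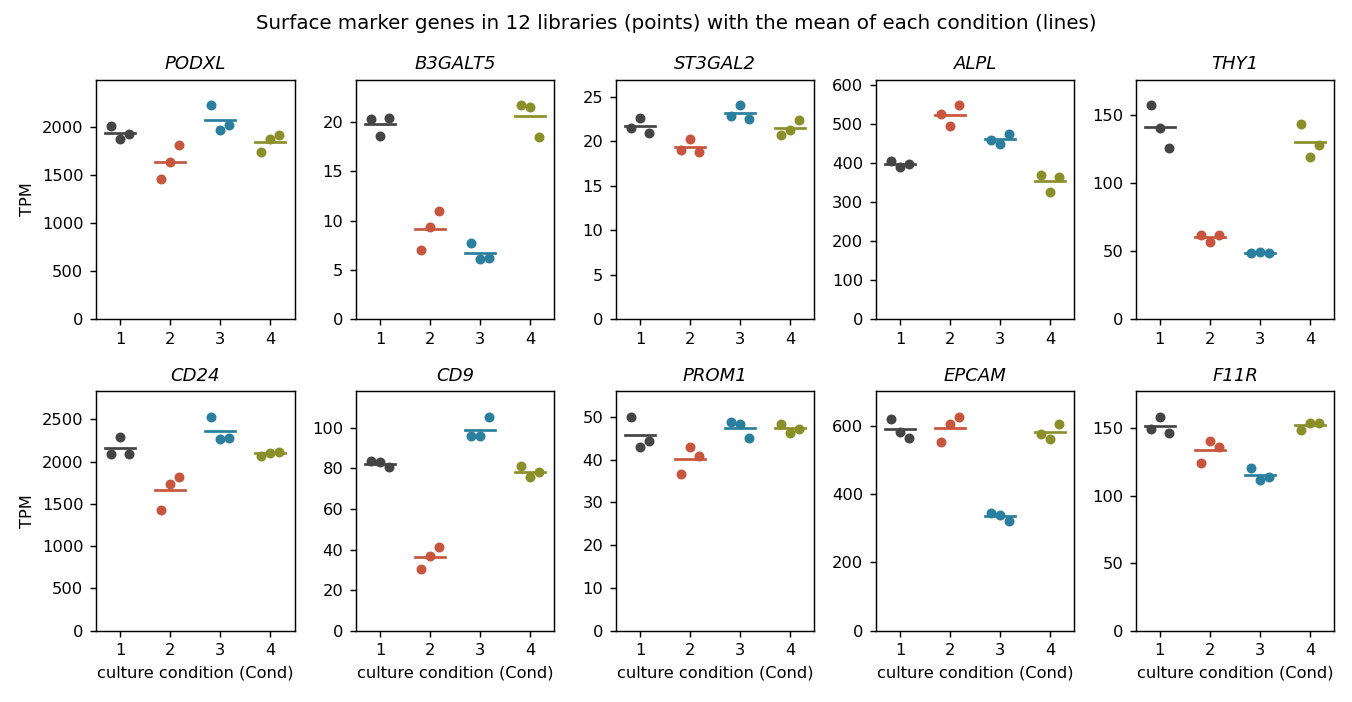
TPM of each of the 10 genes (vertical axes, linear, from 0) in the 3 libraries of each culture condition (horizontal axes), with points in the order of the replicate numbers and lines at the mean. B3GALT5 and THY1 lie far below the control in Cond 2 and Cond 3, CD9 does so in Cond 2 and EPCAM in Cond 3, and the points of Cond 4 lie near those of Cond 1 for all 10 genes.

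Counts were tested with edgeR's quasi-likelihood test over 17747 genes, and a call is a Benjamini-Hochberg adjusted p under 0.05. In Cond 2 against Cond 1, 1 of the 9 tested genes was called higher and 7 lower, 2 of them with a fold change above 2. Of all genes tested 10.8% were called higher, 10.1% lower and 4.34% in either direction with a fold change above 2. The median log2 fold change was -0.28 over the 9 genes and 0.00 over all genes. With limma on log2(TPM + 1) over genes of at least 1 TPM in all libraries, 4 of the 9 were called, since PODXL, PROM1, F11R and ST3GAL2 then missed the threshold. In Cond 3 against Cond 1, 2 of the 9 were called higher and 3 lower, 1 with a fold change above 2, where the shares of all genes were 19.5%, 18.8% and 8.16%. Here the median of the 9 genes was 0.07 beside -0.01 over all genes. Without replicate 3 of Cond 3 the calls fell to 3 of 9, CD9 (log2 fold change 0.19, edgeR adjusted p = 0.0822) and ALPL (0.16, edgeR adjusted p = 0.0548) no longer passing.

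In Cond 4 against Cond 1, 0 of the 9 genes were called by edgeR and 0 by DESeq2, and 1 had an unadjusted p under 0.05. Of all genes 0.0225% were called higher, 0.00563% lower and 0.0169% with a fold change above 2, and 1102 of 17747 had an unadjusted p under 0.05. The altered media were also set against each other. By the study's account the heated medium was given from an earlier day than the FBS medium, so the kind of medium and the length of exposure cannot be told apart in this comparison. In Cond 3 against Cond 2, 5 of the 9 were higher and 3 lower, 1 with a fold change above 2, and of all genes 19% were higher, 19.2% lower and 8.77% past that fold. The comparisons with the control share the Cond 1 libraries. In Cond 2 the called marker genes other than ALPL were lower, and in Cond 3 the calls went in both directions.

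**Figure D2:**
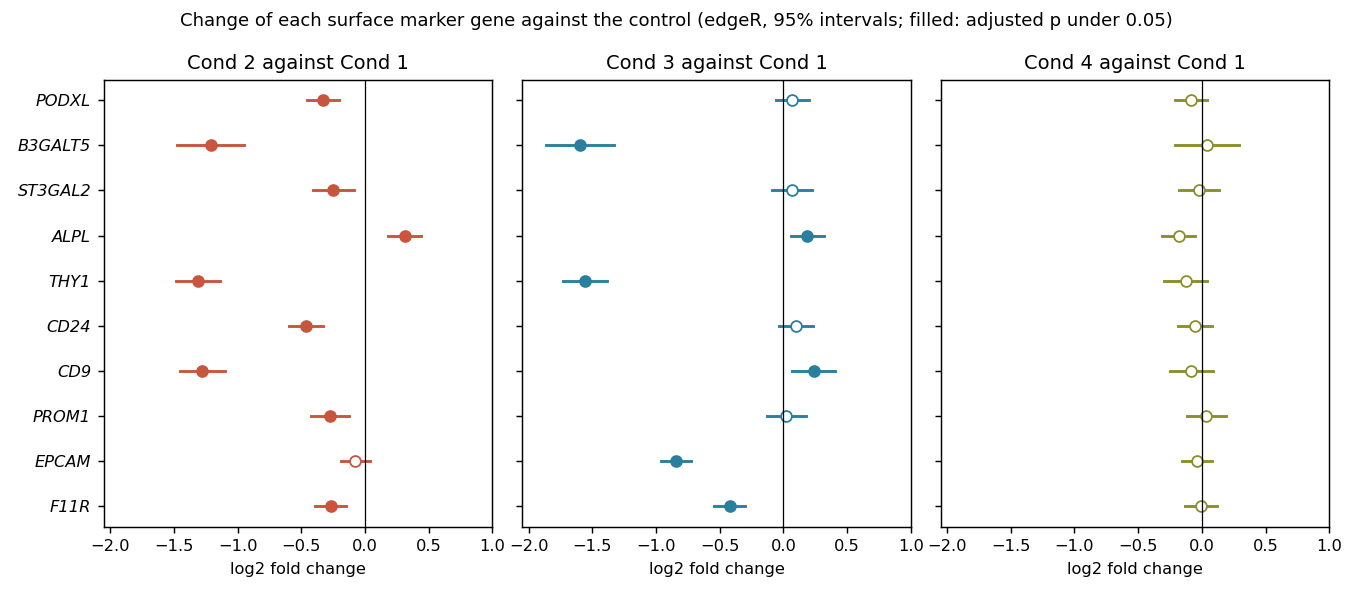
Log2 fold change against Cond 1 (horizontal axes) with its 95% interval for the 10 genes in Cond 2, Cond 3 and Cond 4, from edgeR on deposited counts and, for B3GALT5, on counts recovered from TPM. Filled points have an adjusted p under 0.05: 9 are filled in Cond 2, 6 in Cond 3 and 0 in Cond 4.

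PODXL (ENSG00000128567, chromosome 7, 131500262 to 131558217, reverse strand, GRCh38) encodes podocalyxin, a sialomucin that bears the TRA-1-60 chains. Its TPM was 2011, 1882 and 1926 in Cond 1, 1456, 1636 and 1820 in Cond 2, 2228, 1976 and 2025 in Cond 3, and 1744, 1879 and 1915 in Cond 4. The Cond 2 libraries were all below those of Cond 1, and the libraries of Cond 3 and Cond 4 overlapped with the control. Against the control, Cond 2 gave a log2 fold change of -0.33 (95% interval -0.46 to -0.21, edgeR adjusted p = 8.95e-05), a 1.26-fold lower level. With limma on log2(TPM + 1) it was -0.25 (limma adjusted p = 0.0564). In Cond 3 it was 0.07 (95% interval -0.06 to 0.20, edgeR adjusted p = 0.342). Cond 3 exceeded Cond 2 by 0.40 on the log2 scale (edgeR adjusted p = 4.13e-06).

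B3GALT5 (ENSG00000183778, chromosome 21, 39556442 to 39673137, forward strand) encodes the galactosyltransferase that makes SSEA-3, and it can also build type 1 sugar chains. Its TPM was 20.4, 18.6 and 20.5 in Cond 1. In Cond 2 it was 7.02, 9.37 and 10.99, and in Cond 3 it was 7.76, 6.07 and 6.19. In Cond 4 it was 21.7, 21.5 and 18.5. No library of Cond 2 or Cond 3 reached the lowest control library. Limma on log2(TPM + 1), over 14253 genes, gave a log2 fold change of -1.06 in Cond 2 (95% interval -1.38 to -0.74, limma adjusted p = 4.31e-04) and of -1.44 in Cond 3 (95% interval -1.76 to -1.12, limma adjusted p = 3.06e-05).

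The reads behind these values could be recovered, because TPM values of a gene keep the ratios of its whole-number counts. B3GALT5 had 1607, 1255 and 1716 reads in Cond 1, 508, 766 and 758 in Cond 2, 681, 476 and 470 in Cond 3, and 1471, 1583 and 1436 in Cond 4. With the 790 genes recovered in this way added to the counts, edgeR gave -1.21 in Cond 2 (edgeR adjusted p = 4.81e-08) and -1.60 in Cond 3 (edgeR adjusted p = 4.77e-10), which are 2.32-fold and 3.03-fold lower levels. Between the media, Cond 3 against Cond 2 gave -0.39 with limma (limma adjusted p = 0.0453) and -0.38 on recovered counts (edgeR adjusted p = 0.0135), with overlapping libraries. That call was lost without replicate 3 of Cond 2 (-0.24, edgeR adjusted p = 0.117), without replicate 2 of Cond 3 (-0.32, edgeR adjusted p = 0.0736) or without replicate 3 of Cond 3 (-0.35, edgeR adjusted p = 0.0528). B3GALT5 shares 132 exon bases with the antisense gene B3GALT5-AS1, which was at 5.94 to 12.4 TPM, and whether the counting used strand is not given in the sources used here. It also shares 200 exon bases with ENSG00000225330 on the same strand, which was listed at 0 to 4.73 TPM. Over those bases reads of B3GALT5 and of its neighbours cannot be told apart.

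ST3GAL2 (ENSG00000157350, chromosome 16, 70375977 to 70439237, reverse strand) encodes the sialyltransferase that turns SSEA-3 into SSEA-4. Its TPM was 21.5, 22.6 and 20.9 in Cond 1, 19.1, 20.3 and 18.9 in Cond 2, 22.9, 24.1 and 22.6 in Cond 3, and 20.8, 21.3 and 22.5 in Cond 4. The Cond 2 libraries lay just below the control. The log2 fold change there was -0.25 (edgeR adjusted p = 0.0113, limma adjusted p = 0.0830), and in Cond 3 it was 0.07 (95% interval -0.09 to 0.22, edgeR adjusted p = 0.470). An antisense gene, ENSG00000260111, shares 590 exon bases with ST3GAL2 and was listed at 0 TPM in all libraries, and 9.18% of the 31-base words of ST3GAL2 transcripts recur on alternate haplotype sequences.

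Within a library, ST3GAL2 and B3GALT5 were transcribed at nearly equal TPM in the control, with ratios of 1.02 to 1.22. The ratio was 1.72 to 2.71 in Cond 2, 2.95 to 3.96 in Cond 3 and 0.957 to 1.21 in Cond 4. PODXL stood at 94.2 to 101 times the TPM of B3GALT5 in Cond 1, 166 to 207 times in Cond 2, 287 to 327 times in Cond 3 and 80.3 to 103 times in Cond 4. In both changed media every library lay above all control libraries in both ratios, which were formed after the values were seen.

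**Figure D3:**
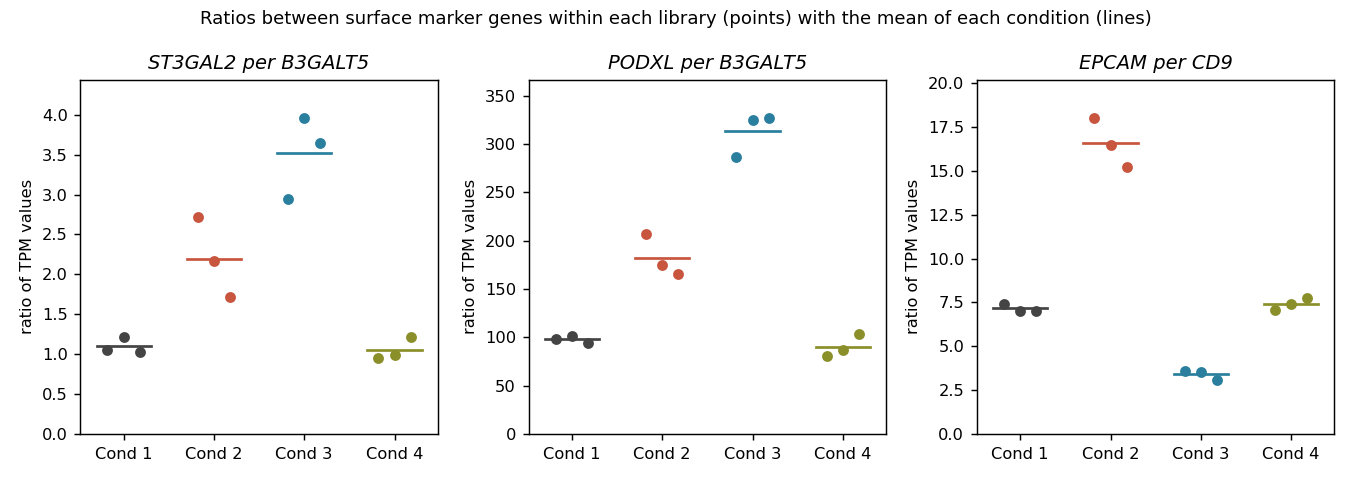
Ratio of TPM values between 2 genes within each library (vertical axes, linear, from 0; points in the order of the replicate numbers, lines at the mean) in the 4 conditions. ST3GAL2 per B3GALT5 rises from 1.02 to 1.22 in Cond 1 to 2.95 to 3.96 in Cond 3, PODXL per B3GALT5 from 94.2 to 101 to 287 to 327, and EPCAM per CD9 is highest in Cond 2 at 15.2 to 18.03 and lowest in Cond 3 at 3.06 to 3.596.

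Most other enzymes of the globo-series route changed by less than 2-fold, FUT1 in Cond 3 being the exception. Of 8 further genes of the route, 6 were tested on deposited counts, and in Cond 2 0 were called higher and 3 lower, with a median log2 fold change of -0.14 (0.00 over all genes). In Cond 3, 1 was higher and 3 lower, with a median of -0.35 (-0.01 over all genes). Beside these and the later list counts stand the shares of all genes called. They were 10.8% higher and 10.1% lower in Cond 2, and 19.5% and 18.8% in Cond 3. In Cond 3 against Cond 2 they were 19% and 19.2%. FUT1, the fucosyltransferase that makes the H antigen on such chains, fell from a TPM of 37.4 ± 1.90 in Cond 1 to 15.1 ± 0.236 in Cond 3 (SD, n = 3 for both). The log2 fold change of FUT1 was -1.34 in Cond 3 (edgeR adjusted p = 1.13e-10) and -0.48 in Cond 2 (edgeR adjusted p = 3.01e-04). B4GALT6, a lactosylceramide synthase at 19.3 TPM in Cond 1, fell in both media (-0.49 and -0.66, edgeR adjusted p = 0.00132 and 2.65e-05). B4GALT5, the other such synthase, had the highest TPM of this list. It was at 162.2 TPM in Cond 1 and 163.5 in Cond 3, and at -0.18 in Cond 2 (edgeR adjusted p = 0.0165). FUT2, another fucosyltransferase at low level, rose in Cond 3 (0.84, edgeR adjusted p = 0.00219). UGCG, which makes the first glucosylceramide of the route, was at 0.05 in Cond 2 and -0.19 in Cond 3 (edgeR adjusted p = 0.793 and 0.117). On recovered counts A4GALT, the Gb3 synthase upstream of globoside, was higher in both (0.58 and 0.48, edgeR adjusted p = 0.00150 and 0.00418).

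A competing use of the same precursors lies in the ganglio- and lacto-series. Of 8 genes tested there, 2 were called higher and 1 lower in Cond 2, and 3 higher and 1 lower in Cond 3. ST6GALNAC3, a sialyltransferase and the gene of this list with the highest TPM, rose in both media (0.58 and 0.44, edgeR adjusted p = 8.31e-04 and 0.00473). B3GALT4, a galactosyltransferase of gangliosides, was listed at 0 in all libraries. How reads with more than 1 match were counted is not given in the sources used here, so this does not show that the transcript was lacking.

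The sugar chains of TRA-1-60 are built on mucin-type O-glycans by a longer series of enzymes, 17 of which were listed and all tested. In Cond 2, 0 were called higher and 4 lower (median -0.15). In Cond 3, 6 were higher and 3 lower (median 0.04), and in Cond 3 against Cond 2, 9 were higher and 0 lower. B3GNT7, which extends keratan sulphate chains, had a TPM of 91.6 ± 10.8 in Cond 1, 27.5 ± 0.538 in Cond 2, 75.4 ± 1.87 in Cond 3 and 81.4 ± 4.49 in Cond 4 (SD, n = 3). Its log2 fold change was -1.82 in Cond 2 (edgeR adjusted p = 6.87e-14), -0.31 in Cond 3 (edgeR adjusted p = 0.00175) and 1.51 in Cond 3 against Cond 2 (edgeR adjusted p = 1.10e-12). GALNT3, one of the transferases that start O-glycans, fell in both media (-0.90 and -0.77, edgeR adjusted p = 2.85e-07 and 1.28e-06). CHST1, a keratan sulphate sulfotransferase, rose in Cond 3, from 1.21 ± 0.133 to 5.20 ± 0.783 TPM (SD, n = 3), with a log2 fold change of 2.08 (edgeR adjusted p = 5.86e-06). B3GNT7 was thus the listed gene with the largest fall in Cond 2 and CHST1 the one with the largest rise in Cond 3.

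**Figure D4:**
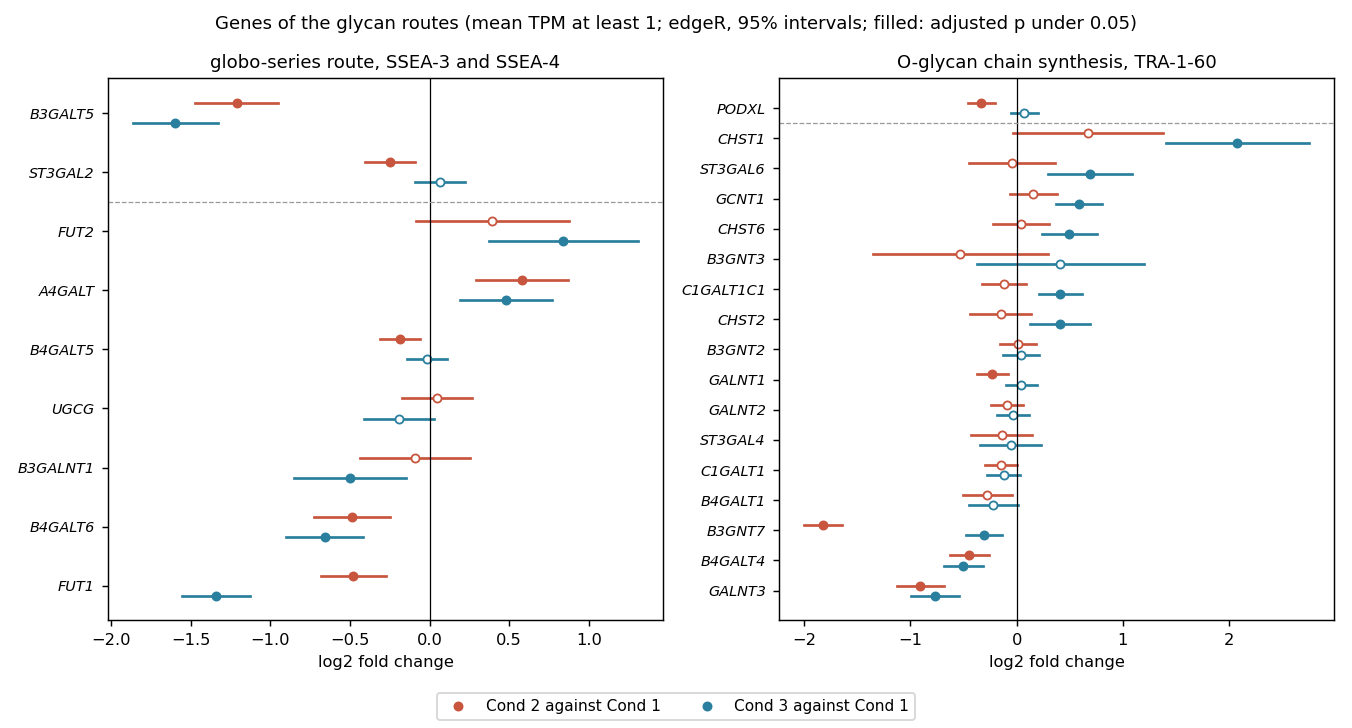
Log2 fold change against Cond 1 with 95% intervals (edgeR) for genes with a mean of at least 1 TPM in the globo-series route (left) and in O-glycan chain synthesis (right). Above the dashed lines stand the marker genes themselves. B3GALT5, at -1.21 in Cond 2 and -1.60 in Cond 3, lies farthest left on the left, and B3GNT7 in Cond 2 (-1.82) on the right.

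Podocalyxin is held to actin by ezrin-type linkers. Of 7 genes tested for its family and linkers, 2 were called higher and 1 lower in Cond 2, and 2 higher and 2 lower in Cond 3. Ezrin (EZR) itself was at 738 ± 16.4 TPM (SD, n = 3) in Cond 1 and changed by -0.28 in Cond 2 (edgeR adjusted p = 2.60e-04) and -0.15 in Cond 3 (edgeR adjusted p = 0.0201). None of the genes called among the 7 had a fold change above 2.

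Among the GPI-anchored markers, THY1 (CD90; ENSG00000154096, chromosome 11, 119415476 to 119424985, reverse strand) fell most. Its TPM was 157, 141 and 126 in Cond 1, 62.1, 57.0 and 62.2 in Cond 2, 48.6, 49.2 and 48.9 in Cond 3, and 144, 119 and 128 in Cond 4. Both changed media lay below Cond 1 and Cond 4 in all libraries, and Cond 3 was lowest without overlap with Cond 2. The counts gave a log2 fold change of -1.31 in Cond 2 (95% interval -1.48 to -1.14, edgeR adjusted p = 8.84e-12) and -1.56 in Cond 3 (95% interval -1.73 to -1.38, edgeR adjusted p = 3.63e-13). Cond 3 differed from Cond 2 by -0.25 (edgeR adjusted p = 0.0128), which missed the threshold with limma over all genes above 0 TPM in any library (limma adjusted p = 0.0595). THY1 transcripts share 632 exon bases with the antisense gene THY1-AS1, not analysed here, and 232 with USP2-AS1, which stood at 0.81 to 1.97 TPM.

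ALPL (ENSG00000162551, chromosome 1, 21509397 to 21578410, forward strand) encodes tissue-nonspecific alkaline phosphatase, the enzyme behind the stain used on pluripotent colonies. Its TPM was 405, 391 and 397 in Cond 1, 526, 496 and 549 in Cond 2, 460, 449 and 476 in Cond 3, and 371, 328 and 364 in Cond 4. The 4 conditions did not overlap, in the order Cond 4, Cond 1, Cond 3, Cond 2 from low to high. In log2 units ALPL rose by 0.31 in Cond 2 (edgeR adjusted p = 2.06e-04) and by 0.19 in Cond 3 (edgeR adjusted p = 0.00956, limma adjusted p = 0.0517 over all genes above 0 TPM in any library). In Cond 4 it was -0.18 (95% interval -0.31 to -0.05), with an unadjusted p of 0.00359 and an edgeR adjusted p of 0.728. Cond 3 against Cond 2 gave -0.12 (edgeR adjusted p = 0.0858), which passed with limma (-0.18, limma adjusted p = 0.0494). For a single gene, 3 libraries against 3 cannot give an exact permutation p below 0.1, which is the value for each pair of conditions here.

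Of 7 tested genes for other alkaline phosphatases and phosphate balance, 0 were called higher and 3 lower in Cond 2 (median -0.48), and 1 was higher and 0 lower in Cond 3. ALPG, a germ cell-type phosphatase that resembles the placental enzyme, was at -0.80 in Cond 2 (edgeR adjusted p = 4.73e-04), opposite to ALPL. ENPP1, which makes the pyrophosphate that ALPL cleaves, fell as well (-0.65, edgeR adjusted p = 3.70e-05). SLC20A1, a phosphate importer, was the gene higher in Cond 3 (0.49, edgeR adjusted p = 3.68e-06).

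CD24 (ENSG00000272398, chromosome 6, 106969831 to 106975627, reverse strand) encodes a short, heavily glycosylated mucin-like protein. Its TPM was 2088, 2292 and 2093 in Cond 1, 1431, 1740 and 1819 in Cond 2, 2526, 2265 and 2274 in Cond 3, and 2071, 2106 and 2110 in Cond 4. All Cond 2 libraries were below all others. Counts of CD24 gave a log2 fold change of -0.46 in Cond 2 (95% interval -0.60 to -0.33, edgeR adjusted p = 2.38e-06), 0.10 in Cond 3 (edgeR adjusted p = 0.198) and 0.56 in Cond 3 against Cond 2 (edgeR adjusted p = 7.40e-08). CD24 has processed copies, and 9.93% of its 31-base words occur in other genes, 4.88% in CD24P4, whose level is not given here. On alternate haplotype sequences 5.14% of its words recur. Its autosomal copies CD24P1 and CD24P2 were listed at 0 and at 0 to 2.53 TPM. How reads with more than 1 match were counted is not given in the sources used here.

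The genes that build and trim GPI anchors, shared by ALPL, THY1 and CD24, changed by less than 2-fold where they were called. Of 18 tested, 1 was called higher and 5 lower in Cond 2 (median -0.15), and 1 higher and 6 lower in Cond 3 (median -0.16). Of all genes 10.1% were called lower in Cond 2 and 18.8% in Cond 3. PGAP1, which removes an acyl chain from the anchor, was the gene higher in both (0.89 and 0.55, edgeR adjusted p = 1.84e-08 and 1.01e-05).

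CD9 (ENSG00000010278, chromosome 12, 6199715 to 6238271, forward strand) encodes a tetraspanin, a membrane organiser that gathers partner proteins. Its TPM was 83.6, 82.9 and 80.5 in Cond 1, 30.6, 36.6 and 41.1 in Cond 2, 96.1, 95.7 and 105 in Cond 3, and 81.1, 75.7 and 78.4 in Cond 4. Cond 2 was lowest and Cond 3 highest, without overlap with the control. CD9 changed by -1.28 on the log2 scale in Cond 2 (95% interval -1.45 to -1.10, edgeR adjusted p = 1.81e-11), a 2.42-fold lower level. In Cond 3 the change was 0.24 (95% interval 0.07 to 0.41, edgeR adjusted p = 0.0120, limma adjusted p up to 0.107 with other filters). Cond 3 against Cond 2 differed by 1.52 (95% interval 1.34 to 1.69, edgeR adjusted p = 7.42e-13), the largest difference between the altered media among the 10 genes.

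Of 16 other tetraspanins and partners of CD9, all tested, 3 were called higher and 6 lower in Cond 2, and 5 higher and 3 lower in Cond 3. IGSF8, an immunoglobulin protein that binds CD9 and CD81 directly, had a TPM of 134 ± 15.2 in Cond 1, 69.4 ± 7.21 in Cond 2 and 164 ± 12.6 in Cond 3 (SD, n = 3). Its log2 fold change was -1.03 in Cond 2 (edgeR adjusted p = 8.60e-09), 0.27 in Cond 3 (edgeR adjusted p = 0.0156) and 1.30 in Cond 3 against Cond 2 (edgeR adjusted p = 9.63e-11), the same directions as CD9. PTGFRN, the related partner, was at -0.32 in Cond 2 (edgeR adjusted p = 0.00572) and -0.16 in Cond 3 (edgeR adjusted p = 0.125). CD81, the tetraspanin closest to CD9, fell slightly in both (-0.19 and -0.25, edgeR adjusted p = 0.0294 and 0.00208), and CD63 was at -0.03 and 0.03 (edgeR adjusted p = 0.734 and 0.686). In Cond 3, TSPAN18 fell by 1.36 on the log2 scale (edgeR adjusted p = 5.36e-11) and CD82 rose by 1.32 (edgeR adjusted p = 5.67e-05). TSPAN18 was also lower in Cond 2 (-0.55, edgeR adjusted p = 4.82e-05).

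PROM1 (CD133; ENSG00000007062, chromosome 4, 15963076 to 16084378, reverse strand) encodes prominin-1, a cholesterol-binding protein of membrane protrusions. Its TPM was 49.98, 43.0 and 44.3 in Cond 1, 36.6, 43.0 and 41.0 in Cond 2, 48.8, 48.4 and 45.1 in Cond 3, and 48.4, 46.4 and 47.2 in Cond 4. The highest Cond 2 library lay only just under the lowest control library. PROM1 gave a log2 fold change of -0.28 in Cond 2 (edgeR adjusted p = 0.00368, limma adjusted p = 0.111), 0.02 in Cond 3 (edgeR adjusted p = 0.818) and 0.30 in Cond 3 against Cond 2 (edgeR adjusted p = 9.14e-04, limma adjusted p = 0.0742 over all genes above 0 TPM in any library).

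EPCAM (ENSG00000119888, chromosome 2, 47345158 to 47387601, forward strand) encodes an epithelial adhesion protein whose cleavage releases a signalling fragment. Its TPM was 620, 583 and 564 in Cond 1, 553, 604 and 625 in Cond 2, 346, 337 and 322 in Cond 3, and 575, 560 and 606 in Cond 4. Cond 3 stood apart from the other 3 conditions, which overlapped. EPCAM changed by -0.84 on the log2 scale in Cond 3 (95% interval -0.96 to -0.72, edgeR adjusted p = 1.60e-11), a 1.79-fold lower level. In Cond 2 it stood at -0.08 (95% interval -0.19 to 0.04, edgeR adjusted p = 0.340) and at 0.01 with limma (limma adjusted p = 0.924), and Cond 3 against Cond 2 gave -0.77 (edgeR adjusted p = 7.37e-11). EPCAM and CD9 therefore separated the altered media in opposite directions. The TPM of EPCAM per CD9 was 7.01 to 7.41 in Cond 1, 15.2 to 18.03 in Cond 2, 3.06 to 3.596 in Cond 3, and 7.09 to 7.73 in Cond 4, a ratio formed after the values were seen.

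F11R (JAM-A; ENSG00000158769, chromosome 1, 160995211 to 161021343, reverse strand) encodes an adhesion molecule of tight junctions. Its TPM was 150, 159 and 147 in Cond 1, 124, 141 and 136 in Cond 2, 120, 112 and 114 in Cond 3, and 149, 154 and 154 in Cond 4. Both changed media lay below the control, Cond 3 lowest. F11R gave a log2 fold change of -0.27 in Cond 2 (edgeR adjusted p = 6.46e-04, limma adjusted p = 0.0640) and -0.42 in Cond 3 (95% interval -0.55 to -0.30, edgeR adjusted p = 1.37e-06). Cond 3 against Cond 2 gave -0.15 (edgeR adjusted p = 0.0264), a call that was lost with upper-quartile normalization (-0.12, edgeR adjusted p = 0.0816) and without any of 4 single libraries (edgeR adjusted p up to 0.132). Of the 31-base words of F11R transcripts 41.5% occur in other genes, 35.4% in ENSG00000270149 on the same strand. That gene was listed at 0 to 0.73 TPM, and how reads matching both were assigned is not given in the sources used here, so the level of F11R is uncertain.

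Of 20 tested partners of EPCAM and genes of tight junctions, 4 were called higher and 4 lower in Cond 2 (median -0.03), and 7 higher and 2 lower in Cond 3 (median 0.11). The claudins, which seal the junction, did not follow EPCAM and F11R in Cond 3. CLDN6, at 1507 ± 75.3 TPM (SD, n = 3) in Cond 1, rose there by 0.27 on the log2 scale (edgeR adjusted p = 4.75e-05). CLDN4 fell in Cond 2 (-0.69, edgeR adjusted p = 4.09e-04) and rose in Cond 3 (0.71, edgeR adjusted p = 9.08e-05), and the media differed by 1.40 (edgeR adjusted p = 1.27e-08). CLDN7, which binds EPCAM directly, was at -0.23 in Cond 2 (edgeR adjusted p = 0.0161) and -0.13 in Cond 3 (edgeR adjusted p = 0.118). Of the other JAM genes, JAM3 rose in both media (0.37 and 0.36, edgeR adjusted p = 4.61e-04 and 3.09e-04).

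**Figure D5:**
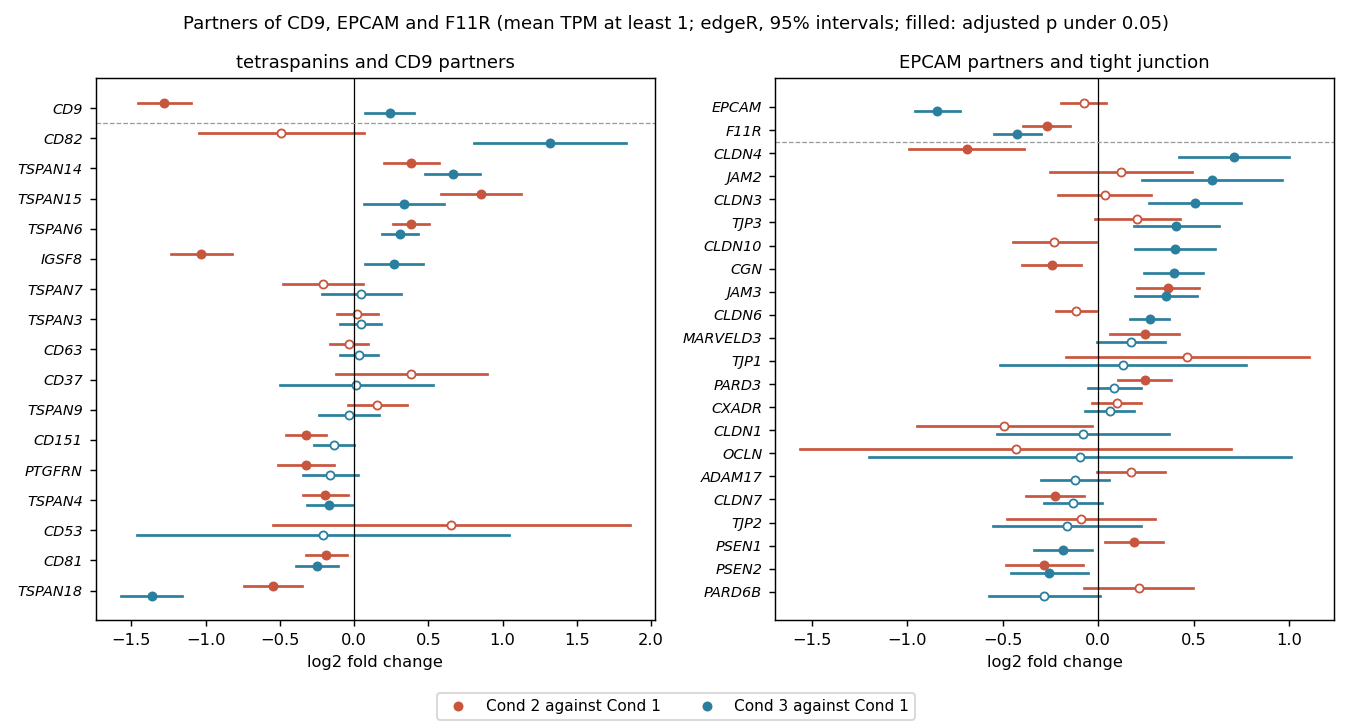
Log2 fold change against Cond 1 with 95% intervals (edgeR) for tetraspanins and partners of CD9 (left) and for partners of EPCAM and tight junction genes (right), in genes with a mean of at least 1 TPM, 1 gene of the right panel left out. The marker genes stand above the dashed lines. IGSF8 has the directions of CD9 in both media (-1.03 and 0.27), and CLDN4 is higher in Cond 3 (0.71) where EPCAM is lower (-0.84).

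Among 18 other surface proteins of pluripotent cells, 3 were called higher and 11 lower in Cond 2 (median -0.28), and 5 higher and 6 lower in Cond 3 (median 0.00). SLC7A3, a cationic amino acid transporter, fell from a TPM of 739 ± 52.8 in Cond 1 to 373 ± 17.1 in Cond 3 (SD, n = 3), with a log2 fold change of -1.01 (edgeR adjusted p = 1.66e-12). In Cond 2 it was at 567 ± 19.2 TPM (SD, n = 3). GJA1, the gap junction protein connexin 43, fell in Cond 2 (-0.31, edgeR adjusted p = 4.43e-04) and rose in Cond 3 (0.67, edgeR adjusted p = 6.58e-09). CDH1, E-cadherin, was at 0.05 in Cond 2 (edgeR adjusted p = 0.551) and rose by 0.25 in Cond 3 (edgeR adjusted p = 2.31e-04), again unlike EPCAM.

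Surface proteins used to mark differentiated cells were also read. Of 15 tested, 4 were called higher and 2 lower in Cond 2, and 7 higher and 2 lower in Cond 3. KDR, a receptor of vascular growth factor, was at 59.7 ± 7.19 TPM in the control and 38.2 ± 5.56 in Cond 3 (SD, n = 3). In Cond 2 KDR fell further (-1.52, edgeR adjusted p = 6.38e-11), to 22.1 ± 2.00 TPM (SD, n = 3). L1CAM, a neural adhesion molecule, fell there as well (-1.05, edgeR adjusted p = 3.41e-07), while CDH2, N-cadherin, rose (0.87, edgeR adjusted p = 2.32e-09). CXCR4, a chemokine receptor present in definitive endoderm, rose in Cond 2, from 0.963 ± 0.188 to 3.97 ± 1.01 TPM (SD, n = 3), on 10 to 12 reads in each control library (log2 fold change 1.95, edgeR adjusted p = 0.00152). CXCR4 was also higher in Cond 3 (1.24, edgeR adjusted p = 0.0264). NCAM1, another neural adhesion molecule, rose in Cond 3 (1.74, edgeR adjusted p = 5.25e-08) and was at 0.00 in Cond 2 (edgeR adjusted p = 0.997). Of the surface markers of naive pluripotency, SUSD2 fell in both media on recovered counts (-1.06 and -0.97, edgeR adjusted p = 2.87e-04 and 3.59e-04), and CD7, at 0.603 ± 0.452 TPM (SD, n = 3) and 2 to 17 reads per library in Cond 1, rose in Cond 3 (2.22, edgeR adjusted p = 0.00120).

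The cell type label was read against 14 markers of pluripotent stem cells. Over Cond 1, Cond 2, Cond 3 and Cond 4 in turn, the TPM of SOX2 was 908 ± 30.1, 1304 ± 25.1, 1263 ± 7.93 and 960.0 ± 11.7 (SD, n = 3), and that of NANOG was 45.9 ± 1.93, 22.9 ± 2.37, 10.5 ± 0.759 and 46.6 ± 1.82 (SD, n = 3). POU5F1, which encodes OCT4, was listed at 0.41 to 1.57 TPM on 6 to 25 reads per library, which is low for a defining marker. How reads that also match copies of POU5F1 elsewhere were counted is not given in the sources used here, so these counts do not show that the transcript was lacking. TDGF1, a NODAL co-receptor held by a GPI anchor, fell in Cond 2 (-1.50, edgeR adjusted p = 4.34e-10), and GDF3, a growth factor of the same family as NODAL, was higher in Cond 3 when set against Cond 2 (1.82, edgeR adjusted p = 0.00203). Of the 14 markers, 4 were called higher and 6 lower in Cond 2 and 6 higher and 4 lower in Cond 3.

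Markers of other cell types moved with the changed media. The summed TPM of 8 neuroectoderm markers without the abundant NES was 7.59 to 16.9 in Cond 1, 327 to 548 in Cond 2, 29.6 to 44.2 in Cond 3, and 12.3 to 22.6 in Cond 4. In Cond 2, 4 of its 7 tested genes were called higher and 0 lower, SIX3 and LHX5 reaching 158 ± 50.4 and 262 ± 65.4 TPM (SD, n = 3). These genes made up most of the sum. PAX6, SOX1 and ZIC1 stayed low there, with means of 0.225, 0.259 and 0.843 TPM. NES was at 323 ± 13.9 TPM in Cond 2 and 341 ± 29.2 in Cond 1 (SD, n = 3). The summed TPM of 9 fibroblast markers, among them THY1 and mainly COL1A1, was 417 to 448 in Cond 1, 257 to 306 in Cond 2, 583 to 619.9 in Cond 3 and 378 to 399.5 in Cond 4. Without COL1A1 the sum was 172.4 to 207.6 in Cond 1, 95.42 to 103.2 in Cond 2, 160.7 to 166.0 in Cond 3 and 158.8 to 187.5 in Cond 4. In that remainder THY1 fell from a mean of 141.1 TPM in Cond 1 to 48.91 in Cond 3. COL1A2 rose there from 47.02 to 109.8 TPM, by 1.20 on the log2 scale (edgeR adjusted p = 2.45e-12). The rise within this list was thus not limited to COL1A1. In that list DCN, LUM and COL3A1 stayed below 1 TPM in all libraries. POSTN was at a mean of 0.173 TPM in Cond 1 (0 to 10 reads per library) and 2.496 in Cond 3 (52 to 98 reads). TWIST1 was at 0.723 and 1.795 TPM. Of 6 tested genes of the list, 0 were called higher and 3 lower in Cond 2, and 3 higher and 1 lower in Cond 3. The 7 endoderm markers summed to at most 5.12 TPM with FOXA2 and SOX17 listed at 0 in Cond 3, the 8 mesoderm markers to at most 17.1, the 8 markers of surface ectoderm and amnion to at most 41.4 and the 4 of endothelium and blood to at most 1.05. TFAP2A, a factor of surface ectoderm, rose in both media (4.84 and 2.28, edgeR adjusted p = 3.86e-08 and 0.00108), and GABRP, an amnion-associated receptor subunit, fell in both (-4.55 and -1.38, edgeR adjusted p = 4.87e-11 and 1.89e-05). Both changes touched low levels. TFAP2A had 4 to 9 reads per library in Cond 1 and a mean of only 0.692 TPM in Cond 3, and GABRP had 4 to 11 reads in Cond 2. AFP, the fetal liver and yolk sac protein, rose in Cond 3 (3.63, edgeR adjusted p = 3.77e-04), and OTX1 was lower in Cond 3 when set against Cond 2 (-1.32, edgeR adjusted p = 0.00242). The part of these changes in the levels of the 10 surface marker genes was not tested.

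Over the 12 libraries, the genes whose pattern was most like that of PODXL were GPC4, ALDH3A2 and QSOX1, with a root mean square difference of centred log2 CPM of 0.06, 0.06 and 0.07. The median over the 9705 genes compared was 0.24. GPC4, a glypican with a GPI anchor, was at 790.2 ± 23.6 TPM in Cond 1, 643 ± 84.3 in Cond 2, 886 ± 21.8 in Cond 3 and 754 ± 49.2 in Cond 4 (SD, n = 3). For B3GALT5 the nearest genes were ESYT2 (0.14), PDGFA (0.20) and AC093866.1 (0.24), where the median was 0.76. ESYT2, a tether between endoplasmic reticulum and plasma membrane, was at 132 ± 2.22 TPM in Cond 1, 58.4 ± 8.91 in Cond 2, 49.2 ± 2.12 in Cond 3 and 126 ± 9.93 in Cond 4 (SD, n = 3). These values describe likeness over 12 libraries of 4 conditions, and nothing was tested with them.

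Across the 10 genes, the order of the conditions differed from gene to gene. Cond 2 was lowest for PODXL, ST3GAL2, CD24, CD9 and PROM1, Cond 3 was lowest for B3GALT5, THY1, EPCAM and F11R, and Cond 4 was lowest for ALPL. The neighbours Cond 1 and Cond 4 overlapped in all genes but ALPL. For ALPL the exact permutation p was 0.1, the smallest that 3 libraries against 3 can give, and the edgeR adjusted p was 0.728. The share of all genes without such overlap is not given here, so this separation is a description only. With edgeR the 95% intervals of the log2 fold change in Cond 4 lay within -0.31 and 0.30 for all 10 genes, B3GALT5 being read on recovered counts, and with limma B3GALT5 had an interval of -0.27 to 0.37.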

How the data were processed

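Poly(A) RNA of 201B7 cells was sequenced by the study (Illumina) from NEBNext Ultra II Directional libraries, 3 for each of 4 conditions. By the study's methods, reads were made with bcl2fastq 2.20.0.422, trimmed with cutadapt 4.1 and fastp 0.20.1, aligned to GRCh38 with HISAT2 2.1.0 and counted with featureCounts, whose version and strand setting are not given in the sources used here. The count table was deposited by the authors as whole-number reads per gene without normalization. The TPM table was computed by the authors from such counts and gene lengths, and the 2 tables matched when TPM was computed anew (relative deviation at most 5.22e-15).

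Among 58580 count lines, 5 named no usable gene and were left out. There was no usable count row for 2042 genes of the TPM table, B3GALT5 among them, where count tests had been planned for all 10 genes, so B3GALT5 was tested with limma on log2(TPM + 1). Fold changes on that scale understate changes of low genes. Counts of 790 such genes were recovered from the whole-number steps of their TPM (tolerance 1e-05 reads) and tested in a fit added after seeing the data. The same recovery on 500 genes with deposited counts returned identical counts for 498 (99.6%), and for 262 of 262 with a mean of at least 50 reads.

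Tests were edgeR 4.0.16 quasi-likelihood fits in R 4.3.3 over all 4 conditions with TMM normalization and its default filter (17747 genes, 18334 with recovered counts), with p-values adjusted by Benjamini-Hochberg over all genes tested. Alternatives used limma 3.58.1 and DESeq2 1.42.0. Intervals are 95% intervals with 8 degrees of freedom (t quantile from scipy 1.17.1). Single values were compared with a two-sided exact permutation test over libraries, whose smallest p is 0.1. The fits were tested on simulated counts. No pair of replicates held the same counts within sampling noise (chi-square per gene 4.18 to 10.2 over 12 pairs), which bears only on whether a library was deposited more than once and not on whether the cultures were separate. Total counts set the precision, with medians per condition of 17718305 to 19189239.

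Members and gene lists were chosen with earlier results of these data known. Text names follow a rule: all members, the called genes of each list with a fold change above 2 (at most 3 per list and comparison, mean TPM of at least 1), and the 3 genes most like PODXL and B3GALT5 among those of at least 10 TPM, with NANOG and SOX2 as a check of the cell type. Other list genes named with values, and the ratios between genes, were chosen after their values were seen. Exon overlaps and words of 31 bases shared between genes were taken from GENCODE v44, which matched 99.41% of the gene identifiers, and promoter windows from RefSeq GRCh38.p14. The values of 1 listed gene are not reported here.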

Additional observations from a re-analysis of the deposited data

How the results depend on the processing

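Among the log2 fold changes of the 10 genes recomputed under other settings, 575 kept their direction and their side of the threshold, 30 missed it, 2 newly passed it and 13 changed sign. In Cond 2 against Cond 1, 4 of 9 genes were called under each of the 3 limma settings (log2(TPM + 1), log2(TPM + 0.1), and log2(TPM + 1) over genes above 0 TPM in any library), and 2 when a fold change above 2 was also required. In Cond 3 against Cond 1 the count was 3 with limma over genes above 0 TPM in any library, 1 with the fold threshold, and 3 to 5 when single libraries were left out. In Cond 3 against Cond 2 it was 5 with that limma setting and 1 with the fold threshold. Leaving out single libraries gave 8 in every case in Cond 2, 7 to 8 in Cond 3 against Cond 2, and 0 in Cond 4. The causes were not tested, except that a fold threshold can only remove calls.

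Changes of sign touched no called value. EPCAM in Cond 2 was at 0.011 and F11R in Cond 4 at 0.0073 under all 3 limma settings. Over the left-out libraries PROM1 ran from -0.0227 to 0.0832 in Cond 3 and from -0.0106 to 0.0957 in Cond 4, F11R in Cond 4 from -0.0218 to 0.0227, B3GALT5 in Cond 4 from -0.0025 to 0.119, and ST3GAL2 in Cond 4 from -0.0561 to 0.0023. No scaling moved the median log2 fold change of all genes by more than 0.0849, the shift with limma in Cond 2.

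With the replicate number as a block, the calls over all genes went from 3701 to 3750 in Cond 2, from 6811 to 6854 in Cond 3, from 5 to 5 in Cond 4 and from 6777 to 6780 in Cond 3 against Cond 2, and the replicate block changed the call of no member. Deviations of same-numbered libraries correlated at -0.013 to 0.038 over 18 pairs, and those of other pairs at -0.069 to 0.061 over 36. These ranges alone do not tell whether same-numbered libraries were prepared together.

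Calls of genes with small changes are limited by the 3 libraries per condition, and genes with few reads, such as CXCR4 and CD7, by counting.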
